A study of Mus musculus with 10 samples.

Results

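Fgf21, Stc1, Stc2, Adm, Esm1, Angptl4 and Vldlr are 7 genes that are often named as outputs of cellular stress, of low oxygen or of fatty acid signalling. The first 6 encode secreted proteins and Vldlr encodes a receptor. Every probe set annotated with exactly 1 gene symbol, where that symbol was one of these names, was taken, which gave 17 probe sets for 7 genes out of 34945 such probe sets for 18193 genes. The names were chosen by measured values, with the log2 changes between the genotypes on these same 10 arrays already known, so the values below describe these genes and the calls among them are no test of the choice.

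The measurements came from 10 Affymetrix arrays of RNA from whole embryonic mouse hearts, all female and at 13.5 dpc (days post coitum). The Hccs het KO group held 5 pools of hearts with a heart conditional heterozygous knockout of Hccs, and the control group held 5 pools from littermates labelled control. Each pool combined 4 to 5 hearts of 1 genotype and went on 1 array, so differences between embryos within a pool cannot be seen. The gene or cell type that drives the recombination, and the alleles that the control embryos carry, are not stated in the labels. Hccs lies on the X chromosome and encodes holocytochrome c synthase, the haem lyase of the mitochondrial c-type cytochromes. Through X inactivation, heterozygous females carry deficient cells beside normal ones. In a whole heart, fewer cells of a type and less RNA per cell cannot be told apart.

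FGF21 is an endocrine fibroblast growth factor that needs the co-receptor beta-klotho, and its gene is a known target of the transcription factor ATF4 when mitochondria or amino acid supply fail in mouse muscle and liver. Stanniocalcins 1 and 2 are secreted glycoproteins, and stanniocalcin 2 inhibits the protease PAPP-A, which frees insulin-like growth factors from their binding proteins. Adrenomedullin is a vasodilating and angiogenic peptide that acts through the receptor Calcrl with a Ramp partner. ESM1 is a proteoglycan secreted by endothelial cells, mainly by those at the tip of growing vessels. ANGPTL4 inhibits lipoprotein lipase and is induced by PPAR factors and by low oxygen. The VLDL receptor takes up triglyceride-rich lipoproteins in heart muscle and is one of the receptors of reelin.

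The RefSeq promoter table (build GRCm38.p6, 250 bases before to 50 after a gene's start) held windows for 5 of the genes, with 2 windows for Vldlr. Stc1 and Angptl4 had no window there. Each window was searched on both strands for TGATGNAA, the core of the composite element bound by ATF4 with C/EBP factors, and for ACGTG and GCGTG, the cores of hypoxia response elements. The windows of Fgf21 and Esm1 are shown because one gene lacked a measurable difference and the other was higher in Hccs het KO hearts, and the second Vldlr window because it holds the same 8 letters as Fgf21. They lie at chr7:45615441-45615740 (minus strand), chr13:113209409-113209708 (plus strand) and chr19:27216770-27217069 (plus strand), are written 5′ to 3′ along the gene, and have every match in capitals.
Fgf21: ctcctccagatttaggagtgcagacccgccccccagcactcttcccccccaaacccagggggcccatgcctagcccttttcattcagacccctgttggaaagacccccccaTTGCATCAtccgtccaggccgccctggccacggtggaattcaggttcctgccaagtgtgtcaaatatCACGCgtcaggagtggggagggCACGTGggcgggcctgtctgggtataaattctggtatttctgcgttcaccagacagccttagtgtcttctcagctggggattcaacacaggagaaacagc
Esm1: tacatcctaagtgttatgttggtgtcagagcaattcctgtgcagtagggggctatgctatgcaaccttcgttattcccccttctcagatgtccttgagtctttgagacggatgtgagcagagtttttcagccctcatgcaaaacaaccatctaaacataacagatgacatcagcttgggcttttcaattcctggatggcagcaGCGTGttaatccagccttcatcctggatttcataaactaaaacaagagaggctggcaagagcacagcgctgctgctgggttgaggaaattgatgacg
Vldlr: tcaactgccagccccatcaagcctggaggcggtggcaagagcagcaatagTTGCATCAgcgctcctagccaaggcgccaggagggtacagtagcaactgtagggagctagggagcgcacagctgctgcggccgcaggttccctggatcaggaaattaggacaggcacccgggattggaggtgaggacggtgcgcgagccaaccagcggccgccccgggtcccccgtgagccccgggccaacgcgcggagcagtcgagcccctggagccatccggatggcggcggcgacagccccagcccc
The composite core occurred once in the Fgf21 window, as TTGCATCA on the opposite strand with its first base at -139 from the start, and once in this Vldlr window, as the same letters at -200. It was present in 3.97% of the 32851 windows of the table. The Esm1 window held no match to it and 1 match to GCGTG, at -47. ACGTG was found in the Fgf21 window on both strands of 1 palindrome, at -50 and -49, and GCGTG at -72. The Adm and Stc2 windows each held 2 matches to GCGTG and none to the other motifs, and the first Vldlr window held none of the 3. ACGTG was present in 19.6% and GCGTG in 32.4% of all windows, so a match to either is common. These are matches of letters only.

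Hccs itself checked the labels. Its log2 signal ran from 10.39 to 10.90 in Hccs het KO pools and from 11.11 to 11.31 in control pools, and the groups did not overlap (exact two-sided permutation p = 0.00794, the smallest that 5 against 5 arrays allow). Its limma adjusted p was 0.0225, and it was 0.0511, 0.0511, 0.0517 and 0.0563 without control replicate 2, control replicate 3, Hccs het KO replicate 2 and Hccs het KO replicate 4. Here and below the brightest probe set stands for a gene unless another is named, a log2 change is Hccs het KO minus control, an SE is that of limma's moderated fit, and a gene is called where its p is under 0.05 after Benjamini-Hochberg adjustment over all 18193 genes. The fit called 469 genes, or 2.58% of those tested, with 297 (1.63%) higher and 172 (0.945%) lower in Hccs het KO hearts, and the median log2 change of all genes was 0.025. Higher genes made up 63.3% of the calls, against 52.4% with quantile normalization. That count ran from 105 to 1042 when 1 array was left out, the lowest without Hccs het KO replicate 4 and the highest without Hccs het KO replicate 1, and only without control replicate 5 did it stay within 1.5 times of 469. Markers of cardiomyocytes averaged 14.30 ± 0.08 in Hccs het KO hearts and 14.61 ± 0.08 in control hearts (log2 signal, SD, n = 5 each, 14 genes). This difference had the smallest possible exact permutation p of 0.00794, or 0.111 adjusted over 14 array and marker measures. With so many measures, 1 measure alone cannot reach a lower adjusted value, so 0.111 is no sign of a weak difference. All 14 markers had a negative log2 change, and 12 had an unadjusted limma p under 0.05, which held for 20.6% of all genes.

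Of the 7 genes, Esm1 alone was called (1.63% of all genes were called higher, 2.58% in either direction), and 6 were not. Only Esm1 had groups that did not overlap, which held for 5.79% of all genes, or 3.86% with Hccs het KO higher. Of the 17 probe sets, again only that of Esm1 was called and had separate groups, against 1.71% called and 5.58% separate among all 34945. Of the 7 log2 changes 4 were positive and 3 negative, with a median of 0.011, and that of Fgf21 turned to -0.012 with median centring. Against the background of 2.58% nothing is read from this count, because the names were chosen with the contrast known.

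**Figure D1:**
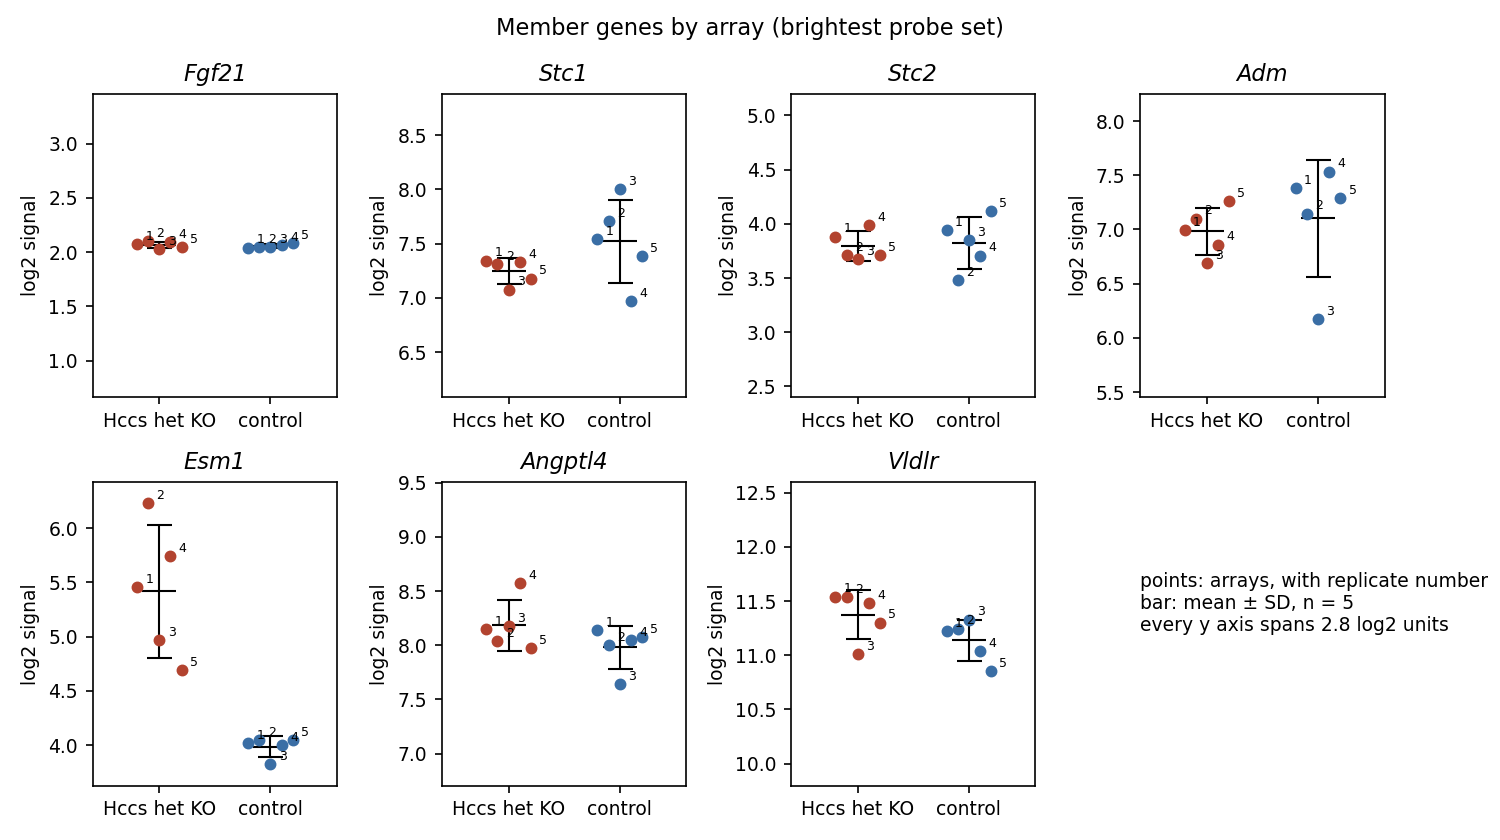
Log2 signal of the brightest probe set of each of the 7 genes on each array, with Hccs het KO pools at the left and control pools at the right of every panel, points numbered by replicate, and bars for mean ± SD (n = 5). Every vertical axis spans the same number of log2 units; the groups are apart for Esm1 and overlap for the other genes, and Fgf21 is flat near 2.

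Esm1 had log2 signals of 5.46, 6.23, 4.97, 5.74 and 4.69 in Hccs het KO replicates 1 to 5, against 4.02, 4.05, 3.82, 4.00 and 4.05 in control replicates 1 to 5. All 5 Hccs het KO pools lay above all control pools. The means were 5.42 ± 0.61 in Hccs het KO hearts and 3.99 ± 0.09 in control hearts (SD, n = 5 each), a log2 change of 1.43 (SE 0.25, 95% interval 0.87 to 1.99). Only 13 of the 18193 genes had a larger positive change. The pools of Hccs het KO hearts covered 1.54 log2 units, against 0.23 in control hearts, and the SD ratio was 6.49. The control signals lay near the array medians of 3.65 to 3.76, and how such low signals relate to transcript amount is unknown. No linear fold is given, and nothing is read from the narrower spread of the control pools. The SE and the limma p rest on 1 estimate of spread shared by both groups, although their SDs differed. The limma adjusted p of Esm1, given as a description, was 0.0250. It was 0.0590, 0.0566, 0.0602 and 0.0562 without control replicates 1, 2, 3 and 4, and 0.0628 without Hccs het KO replicate 4, with log2 changes of 1.23 to 1.61 over the 10 fits. Esm1 is represented by 1 probe set.

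None of the 19 endothelial and endocardial markers was called, and 5 had an unadjusted limma p under 0.05, which held for 20.6% of all genes. Their mean log2 signal ran from 9.08 to 9.21 in Hccs het KO hearts and from 8.998 to 9.35 in control hearts, with means of 9.17 ± 0.05 and 9.21 ± 0.13 (SD, n = 5 each, exact permutation p = 0.556). The 3 brightest were Emcn, endomucin (log2 change 0.13, SE 0.061), Tek, the angiopoietin receptor (0.023, SE 0.081), and Npr3, an endocardial natriuretic peptide receptor (-0.19, SE 0.074). Among 20 genes of tip cells and of VEGF signalling none was called, 5 had an unadjusted p under 0.05, 7 log2 changes were positive and 13 negative, against 60.5% positive over all genes, and the median was -0.079. That median was -0.15 without Hccs het KO replicate 4 and -0.033 without Hccs het KO replicate 5. The groups did not overlap for 1 of these 20 genes, against 5.79% of all genes, so nothing is read from this count. That gene, the VEGF receptor Flt4, ran from 8.34 to 8.62 in Hccs het KO hearts and from 8.63 to 8.95 in control hearts (limma adjusted p = 0.121). The brightest was the semaphorin and VEGF co-receptor Nrp1, at 0.024 (SE 0.10, limma adjusted p = 0.911). Over the fits with 1 array left out, 0 to 1 of these genes was called in each direction.

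**Figure D2:**
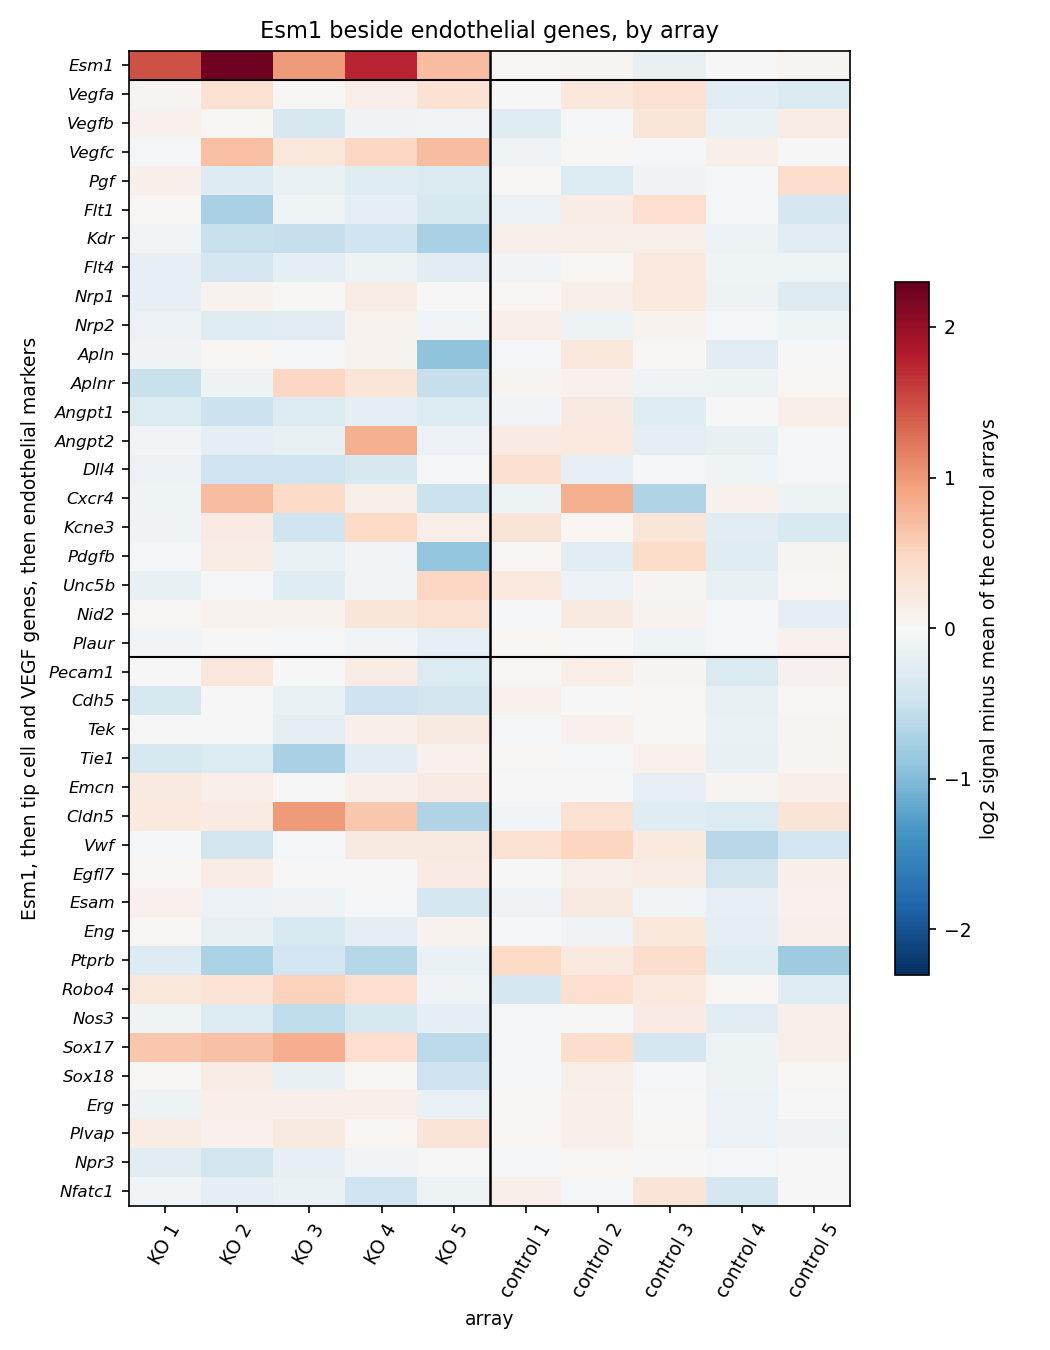
Log2 signal of each gene on each array minus the gene's mean over the control arrays, shown by colour, for Esm1 (top row), the tip cell and VEGF genes (middle) and the endothelial and endocardial markers (bottom). Columns are the 5 Hccs het KO arrays followed by the 5 control arrays; Esm1 is higher in all 5 Hccs het KO arrays, while none of the genes beneath it was called.

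Fgf21 had log2 signals of 2.08, 2.10, 2.03, 2.09 and 2.04 in Hccs het KO replicates 1 to 5, against 2.04, 2.04, 2.04, 2.07 and 2.09 in control replicates 1 to 5. The groups overlapped almost fully, and the signals were below those of the arrays' medians in every pool. The means were 2.07 ± 0.03 in Hccs het KO hearts and 2.06 ± 0.02 in control hearts (SD, n = 5 each), with a log2 change of 0.011 and a 95% interval from -0.050 to 0.072. Only 5.30% of genes had a lower mean signal. Detection calls were not used here, so whether any pool held Fgf21 transcript above background is unknown, and a small difference would not be detectable. Klb, which encodes beta-klotho, ran from 2.18 to 2.27 in Hccs het KO hearts and from 2.14 to 2.27 in control hearts.

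The rest of the FGF system showed no called gene. None of 7 FGF receptor and klotho genes was called, and none reached an unadjusted limma p under 0.05. Fgfrl1, a receptor without a kinase and the brightest of them, differed by -0.040 on the log2 scale (SE 0.096, limma adjusted p = 0.834). Of 17 other FGF ligands none was called and 3 had an unadjusted p under 0.05, against 20.6% of all genes. The groups did not overlap for 2 of these 17, against 5.79% of all genes, and nothing is read from this count. Both were higher in Hccs het KO hearts and dim, with mean log2 signals of at most 3.18 in either group. Fgf1, the brightest of the 17, had a log2 change of 0.080 (SE 0.13).

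Regulators of the integrated stress response, the pathway through which ATF4 acts on Fgf21, rose in part. Of 14 measured genes 7 rose and none fell, and the median log2 change was 0.50. That is 50%, against 2.58% of all genes called in either direction and 1.63% called higher. The list was drawn up with these results known and is no independent evidence of the direction. Trib3, a pseudokinase induced by ATF4 and CHOP, had log2 signals of 8.38, 8.75, 7.92, 8.56 and 8.08 in Hccs het KO replicates 1 to 5, against 4.95, 5.93, 5.88, 5.95 and 6.67 in control replicates 1 to 5. Its groups did not overlap, and it rose by 2.46 on the log2 scale (SE 0.29, limma adjusted p = 0.00951). Atf4 rose by 0.56 (SE 0.082, limma adjusted p = 0.0174), Ddit3, which encodes CHOP, by 0.88 (SE 0.14, adjusted p = 0.0207) and Eif2ak2, the kinase PKR, by 0.40 (SE 0.058, adjusted p = 0.0164). The brightest gene not called was Cebpg, a dimer partner of ATF4, at 0.27 on the log2 scale (SE 0.084, limma adjusted p = 0.125). Trib3, Atf4 and Eif2ak2 kept their calls with each array left out in turn, and Ddit3 had a limma adjusted p of 0.0504 without Hccs het KO replicate 4. The call of Eif2ak2 was lost without both arrays numbered 3 (limma adjusted p = 0.0856) and with the mean of its probe sets (0.089 on the log2 scale, adjusted p = 0.495). For Atf4 1 of 3 probe sets and for Eif2ak2 2 of 3 had a negative log2 change. The choice of probe set also moved the sizes: the most variable one gave 4.05 for Trib3 and 0.96 for Atf4, and the mean of probe sets gave 0.53 for Ddit3. Between 3 and 8 of the 14 rose and 0 to 1 fell with 1 array left out, and 3 (Trib3, Atf4 and Ddit3) rose without both arrays numbered 3. In the same Hccs het KO arrays the mean of the cardiomyocyte markers was lower by a log2 difference of -0.31 and that of the 18S controls by -1.21, and the mean of the epicardial markers was higher by 0.21. Their part in these values was not tested.

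Stc1 had log2 signals of 7.34, 7.31, 7.08, 7.33 and 7.18 in Hccs het KO replicates 1 to 5, against 7.54, 7.71, 7.9995, 6.97 and 7.38 in control replicates 1 to 5. The groups overlapped, because control replicate 4 lay below all Hccs het KO pools. The log2 change was -0.27 (SE 0.16, 95% interval -0.64 to 0.095), and it was -0.15 without control replicate 3 and -0.41 without control replicate 4. The dimmer Stc1 probe set had a log2 change of 0.038.

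Stc2 was dim in all 3 of its probe sets. The brightest had log2 signals of 3.88, 3.71, 3.67, 3.99 and 3.71 in Hccs het KO replicates 1 to 5, against 3.94, 3.48, 3.85, 3.71 and 4.12 in control replicates 1 to 5, a log2 change of -0.026 (SE 0.11, 95% interval -0.28 to 0.23). With 1 array left out this ran from -0.11 (without control replicate 2) to 0.049 (without control replicate 5), so its sign is not settled. A second probe set read 2.22, 3.26, 3.15, 2.53 and 2.68 in Hccs het KO replicates 1 to 5, against 2.45, 2.42, 2.32, 2.44 and 2.35 in control replicates 1 to 5. There 4 of 5 Hccs het KO pools were above all control pools and replicate 1 was below them, with a log2 change of 0.37 (95% interval -0.033 to 0.77). The third had a log2 change of 0.025. The 3 probe sets therefore gave no single direction for Stc2.

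None of 7 genes around PAPP-A and the insulin-like growth factors was called. An unadjusted limma p under 0.05 was found for 3 of them, against 20.6% of all genes. Igf2, the main embryonic growth factor of this family, was the brightest and differed by -0.27 on the log2 scale (SE 0.063, limma adjusted p = 0.0551). It was lower in all 5 Hccs het KO pools than in any control pool, and was the only 1 of these 7 genes whose groups did not overlap. Among all genes, 5.79% had groups that did not overlap. With 1 array left out, 0 to 1 gene of this list was called lower.

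Adm had log2 signals of 6.998, 7.10, 6.69, 6.86 and 7.26 in Hccs het KO replicates 1 to 5, against 7.38, 7.15, 6.17, 7.53 and 7.29 in control replicates 1 to 5. Control replicate 3 lay below every other pool, and control replicates 1, 4 and 5 lay above every Hccs het KO pool. Control replicate 2, at 7.15, lay below Hccs het KO replicate 5, at 7.26. The means were 6.98 ± 0.22 in Hccs het KO hearts and 7.10 ± 0.54 in control hearts (SD, n = 5 each), a log2 change of -0.12 (SE 0.24, 95% interval -0.65 to 0.41). Without control replicate 3 the log2 change was -0.36, and without control replicate 4 it was -0.015. The second Adm probe set changed by -0.26 with an interval from -0.93 to 0.40. Its name marks it as one with probes that can match other transcripts.

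Of 11 genes of adrenomedullin receptors and processing, 1 fell, none rose and 10 were not called. That is 9.09%, against 2.58% of all genes called in either direction and 0.945% called lower. The list was chosen with earlier results of these data known, so nothing is read from this share. The gene that fell was Pam, the enzyme that amidates the carboxyl end of adrenomedullin and of many other peptide hormones. Its log2 signals were 10.55, 10.50, 10.25, 10.19 and 10.56 in Hccs het KO replicates 1 to 5, against 11.01, 11.02, 10.94, 10.93 and 11.06 in control replicates 1 to 5. Every Hccs het KO pool lay below every control pool, and Pam fell by 0.58 on the log2 scale (SE 0.078, limma adjusted p = 0.0156). The call was kept with each array left out in turn, with a limma adjusted p of at most 0.0415, and was lost without both arrays numbered 3 (adjusted p = 0.0706). Cardiomyocyte markers also were lower in Hccs het KO hearts, and their part in this result was not tested. The brightest gene not called was Ackr3, a scavenging receptor for adrenomedullin and CXCL12, at 0.21 on the log2 scale (SE 0.11, limma adjusted p = 0.303).

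Angptl4 had log2 signals of 8.15, 8.04, 8.18, 8.57 and 7.97 in Hccs het KO replicates 1 to 5, against 8.14, 8.01, 7.64, 8.05 and 8.07 in control replicates 1 to 5. The groups overlapped, with Hccs het KO replicate 4 the highest pool and control replicate 3 the lowest. The log2 change was 0.20 (SE 0.13, 95% interval -0.080 to 0.48), and it was 0.10 without Hccs het KO replicate 4 and 0.12 without control replicate 3. The dimmer Angptl4 probe set had a log2 change of 0.097. The name of the brightest marks it as one whose probes can match several transcripts. Liver is a known source of both ANGPTL4 and FGF21, and markers of hepatocytes varied widely between pools. The mean log2 signal of 10 such markers was 3.96, 4.26, 3.59, 6.69 and 6.41 in Hccs het KO replicates 1 to 5, against 4.89, 3.72, 5.16, 4.36 and 5.38 in control replicates 1 to 5. The 2 pools with the most hepatocyte marker signal, Hccs het KO replicates 4 and 5, had the highest and the lowest Angptl4 signal of that group, and Fgf21 was 2.09 and 2.04 there. None of the hepatocyte markers was called, and their part in the Angptl4 values was not tested.

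Partners of ANGPTL4 in lipid handling were not called either. Of 8 measured angiopoietin-like and lipase genes none was called and 1 had an unadjusted limma p under 0.05. Lpl, lipoprotein lipase and the brightest, differed by -0.30 on the log2 scale (SE 0.11, limma adjusted p = 0.175). Of 19 PPAR-regulated lipid genes none was called and 3 had an unadjusted p under 0.05, and the median log2 change was -0.007. Acadl, an enzyme of fatty acid oxidation and the brightest, had a log2 change of -0.074 (SE 0.092).

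Vldlr had 6 probe sets, of which 3 had a positive and 3 a negative log2 change, from -0.18 to 0.28. The brightest had log2 signals of 11.54, 11.53, 11.01, 11.48 and 11.30 in Hccs het KO replicates 1 to 5, against 11.22, 11.25, 11.33, 11.04 and 10.85 in control replicates 1 to 5. The Hccs het KO pools numbered 3 and 5 lay within the control range and control replicate 3 was the highest control, so the groups overlapped. The log2 change was 0.23 (SE 0.12, 95% interval -0.039 to 0.51), and 0.37 without both arrays numbered 3. By its name, this probe set has probes that can match other transcripts. The second brightest probe set had a log2 change of 0.28 (95% interval -0.12 to 0.68), and the next in brightness had -0.070 (95% interval -0.49 to 0.35). The dimmest, by its name also a probe set that can match several transcripts, had 0.28 with a 95% interval from 0.016 to 0.54 (limma adjusted p = 0.225 over all probe sets). The remaining ones had -0.16 and -0.18. The exons that the Vldlr probe sets cover were not looked up here.

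**Figure D3:**
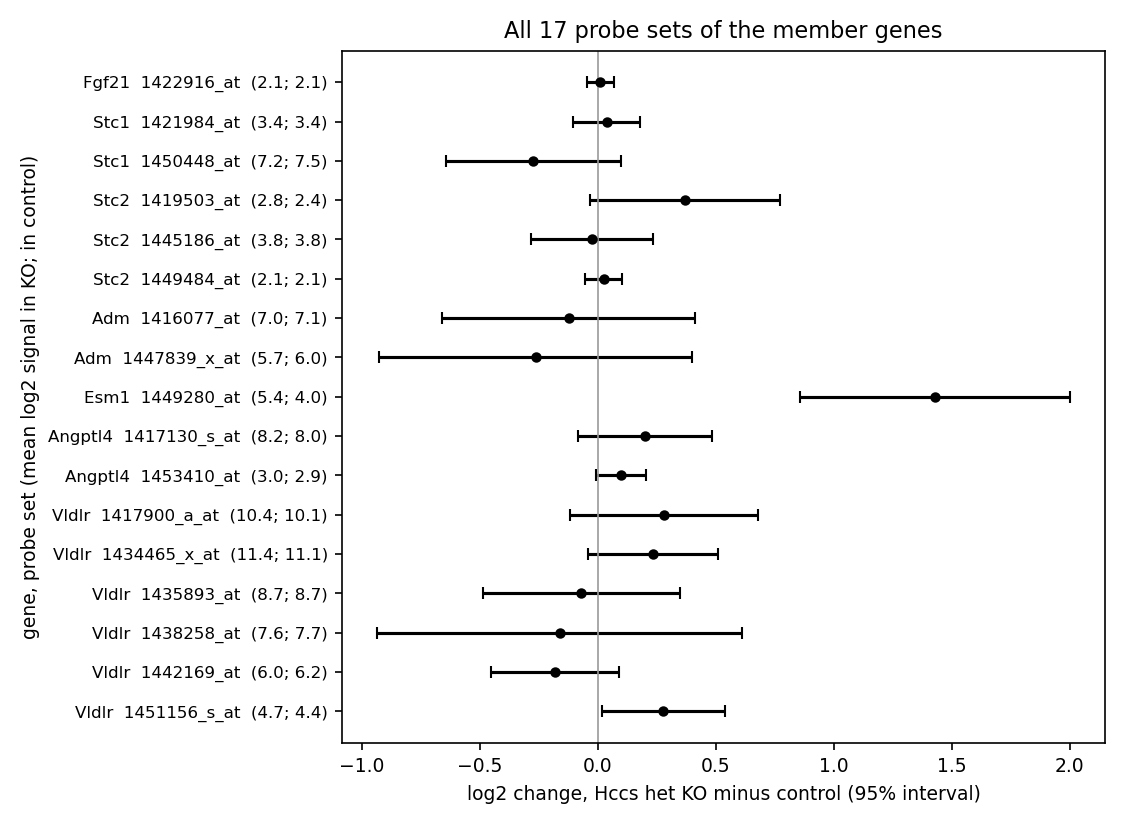
Log2 change (Hccs het KO minus control) of all 17 probe sets of the 7 genes, with bars for the 95% interval of limma's moderated fit over all probe sets with 1 symbol. The numbers beside each probe set are its mean log2 signal in Hccs het KO and in control hearts; the Esm1 probe set lies at 1.43, and the 16 others lie between -0.27 and 0.37.

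Of 17 measured genes of VLDLR-related receptors and the reelin pathway 2 fell, none rose and 15 were not called. That is 11.8%, against 2.58% of all genes called in either direction and 0.945% called lower. This list also was chosen with earlier results of these data known, so nothing is read from this share. Lrp6, a co-receptor for Wnt proteins, fell by 0.36 on the log2 scale (SE 0.071, limma adjusted p = 0.0376). Lrpap1, the chaperone that escorts VLDLR and its relatives through the secretory pathway, fell by 0.19 (SE 0.041, limma adjusted p = 0.0444). Both calls were fragile: that of Lrp6 was kept in 2 of 10 fits with 1 array left out (without control replicate 3 or Hccs het KO replicate 1) and that of Lrpap1 also in 2 (without Hccs het KO replicate 1 or 2). The limma adjusted p otherwise reached 0.0867 for Lrp6 and 0.103 for Lrpap1. Neither was called without both arrays numbered 3 (limma adjusted p = 0.0912 and 0.189). The second Lrp6 probe set had a log2 change of -0.040. Apoe, a ligand of the family and the brightest gene not called, had a log2 change of -0.040 (SE 0.089).

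Genes induced by low oxygen, a condition in which Adm, Stc2, Angptl4 and Vldlr are known to be raised, had mostly negative log2 changes. Of 20 measured genes 3 fell, none rose and 17 were not called. That is 15%, against 2.58% of all genes called in either direction and 0.945% called lower. The list was chosen with earlier results of these data known, so this share is no independent evidence of a fall. The log2 change was negative for 17 of the 20, with a median of -0.19. Egln3, an oxygen-sensing prolyl hydroxylase, fell by 0.43 on the log2 scale (SE 0.084, limma adjusted p = 0.0349). Mxi1, an antagonist of Myc, fell by 0.29 (SE 0.047, limma adjusted p = 0.0221) and the glycolytic enzyme Pgk1 by 0.22 (SE 0.049, limma adjusted p = 0.0482). Ldha, lactate dehydrogenase A and the brightest gene not called, differed by -0.14 on the log2 scale (SE 0.036, limma adjusted p = 0.0762). With 1 array left out 0 to 4 of these genes fell, and none fell by limma's adjusted p without both arrays numbered 3. Cardiomyocyte markers were lower in the same hearts, as given above for Pam, and their part in these values was not tested. The call of Mxi1 was lost without control replicate 3 or Hccs het KO replicate 4 (limma adjusted p = 0.0511 and 0.0563), that of Egln3 was kept in 3 of 10 fits and that of Pgk1 only without Hccs het KO replicate 1.

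None of 21 other secreted factors linked to stress was called, and 4 had an unadjusted limma p under 0.05. Fstl1, a secreted glycoprotein of the heart and the brightest, had a log2 change of -0.036 (SE 0.067). Gdf15 was not analysed here.

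**Figure D4:**
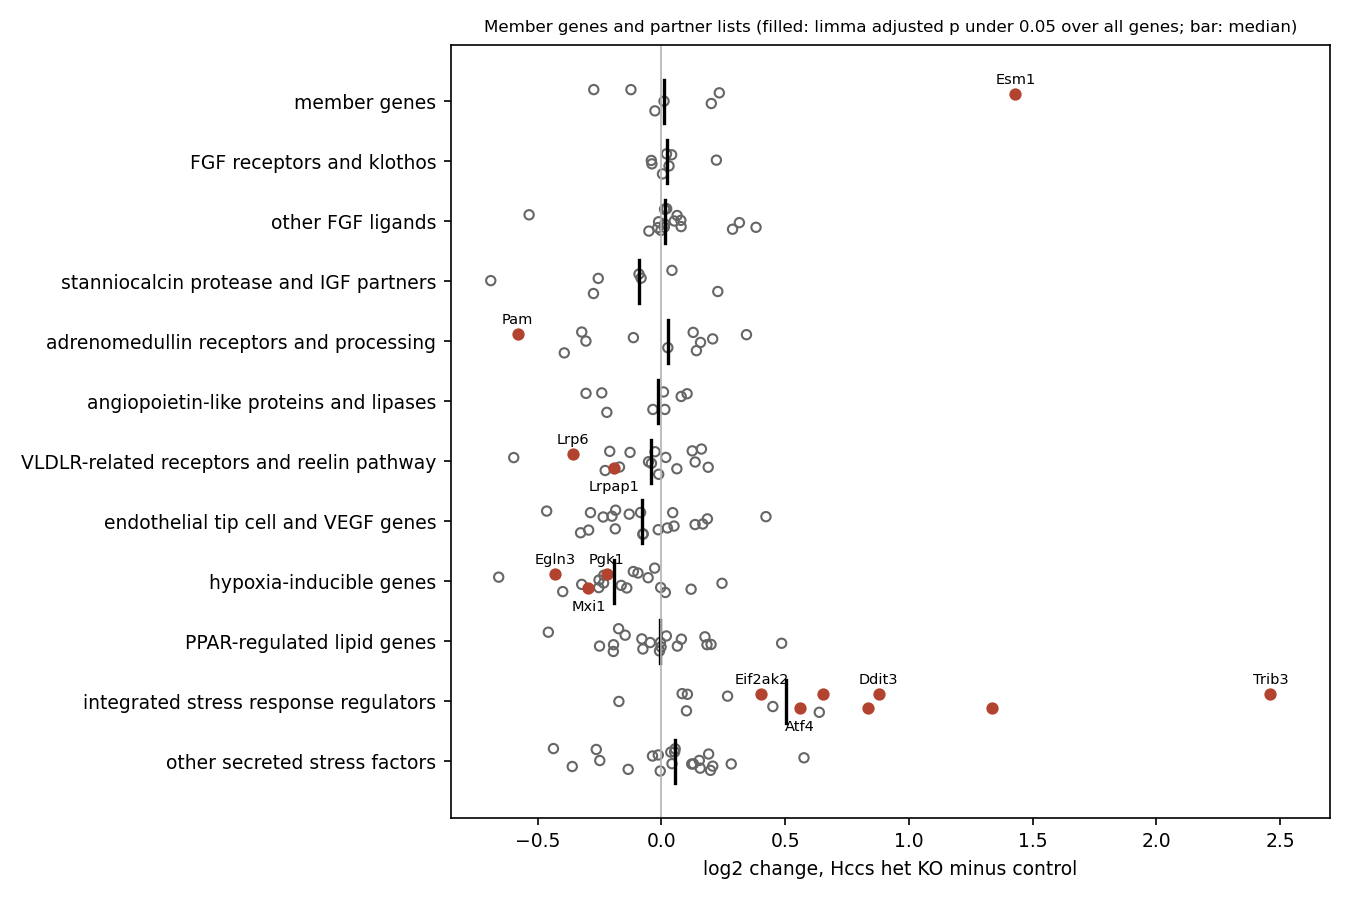
Log2 change (Hccs het KO minus control) of the 7 member genes and of each gene of the 11 partner lists. Filled points are genes with a limma adjusted p under 0.05 over all 18193 genes, up to 4 of them named per list, and bars are list medians; Esm1 is the only filled point among the members, and 7 filled points lie among the integrated stress response regulators.

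Over all 11 lists, with each gene counted once and the 7 genes left out, 7 of 161 measured genes rose and 6 fell, or 8.07% called, against 2.58% of all genes (1.63% higher and 0.945% lower). All 7 that rose belong to the integrated stress response list, which was drawn up with these results known. The other lists also were chosen with earlier results of these data known. For each member, the 2 genes nearest to it in pattern were taken from the 9096 genes above the median level (the member itself left out), by the root mean square difference between profiles scaled to mean 0 and SD 1 over the 10 arrays. Nearest to Esm1 were Tob1, an antiproliferative protein (0.304), and Polr1e, a subunit of RNA polymerase I (0.316). Their log2 changes were 0.38 and 0.37, so the likeness includes the difference between the groups, and what sets it was not tested. Nearest to Vldlr was Nceh1, a cholesteryl ester hydrolase (0.279), followed by St3gal5 (0.443), and nearest to Angptl4 were Car8 (0.262) and AA414768 (0.299). Ephx2 and Med21 were nearest to Fgf21, Pan2 and Tbc1d4 to Stc1, Bace2 and Mt2 to Stc2, and Mbd2 and Hcfc2 to Adm, with differences from 0.330 to 0.557. The best of so many candidates is near by selection, and for Fgf21 and Stc2 the profile is that of very dim signals.

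The 18S ribosomal RNA controls, a sign of residual ribosomal RNA, averaged 8.18 ± 0.33 in Hccs het KO arrays and 9.39 ± 1.06 in control arrays (log2 signal, SD, n = 5 each, exact permutation p = 0.0397, adjusted p = 0.222 over 14 measures). Control replicate 3, at 7.77, lay among the Hccs het KO arrays. It was also the lowest control for Esm1, Adm and Angptl4 and the highest for Stc1 and Vldlr, and it held the most neuronal marker signal, a mean of 6.63 over 5 markers against 3.73 to 4.90 in all other arrays. Whether these features act on the values of the 7 genes was not tested. Of the other marker lists, 1 of 6 epicardial genes was called higher (Tcf21, an epicardial transcription factor, at 0.61 on the log2 scale with a limma adjusted p of 0.0376) and 4 of 14 cardiomyocyte genes were called lower, against 1.63% of all genes called higher and 0.945% called lower. No gene of the smooth muscle and fibroblast, macrophage, erythroid, adipocyte, neuronal or lung epithelium lists was called.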

How the data were processed

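RNA of pooled embryonic hearts was measured on 10 arrays, 5 Hccs het KO and 5 control. Per the labels' protocols, biotinylated cRNA was made from 5 ug of total RNA. Each deposited value is a log2 signal of a probe set, made by the authors with RMA and Partek per the submitters' processing notes; versions, background option and genome build are not given in the sources used here. All arrays share nearly 1 distribution, so a change in total RNA cannot be seen. Signal over background and batches are not given, and precision is limited by how many arrays there are. The labels call the replicates biological.

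Of 45101 probe sets, 64 controls, 932 with several symbols and 9160 with none were left out. Symbols came from the platform annotation, and 34741 of 34945 probe sets matched RefSeq by gene number. Log2 changes were fitted by lmFit and eBayes of limma 3.58.1 (R 4.3.3; genotype only, two-sided) over the probe set with the highest mean per gene, with no filter, and the script was tested on simulated data. Single values used an exact permutation test. Named are the 7 members, Hccs, up to 4 called genes of each list with the smallest p, its brightest gene not called, the 3 brightest markers of the endothelial list, and the 2 genes nearest to each member. Klb, Flt4 and Tcf21 were named outside this rule, with their values seen. Members and lists were chosen with earlier results of these data known. List genes with no usable probe set were not analysed here. Plots used matplotlib 3.10.9 in Python 3.11.15. Alternatives tried were a block for the replicate number, 2 normalizations, 2 filters on level, other choices of probe set, other eBayes settings, array weights, a stricter threshold and each array left out; leaving out both arrays numbered 3 was added after seeing the data. The labels do not say whether replicate numbers pair the samples, and the main fit did not use them. Deviations of same-numbered arrays correlated between -0.091 and 0.077, which cannot decide whether they shared a litter or a batch.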

Additional observations from a re-analysis of the deposited data

Results flagged for a closer look

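In groups of 5 arrays, 4 of 38 sets of values of the member and Hccs probe sets had 1 array far from the rest, where chance gives about 1 in 20. For the dimmer Stc1 probe set, Hccs het KO replicate 2 read 3.65 while the others read up to 3.41, a gap of 0.907 of the group's range. In the other 3 sets control replicate 3 was the low array: for Adm it read 6.17 with the nearest control at 7.15 (gap 0.715), for Esm1 3.82 with the nearest at 4.00 (gap 0.780), and for Angptl4 7.64 with the nearest at 8.01 (gap 0.731).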

How the results depend on the processing

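The log2 changes of Adm, Angptl4, Esm1, Fgf21 and Stc1 moved by less than the spread between replicates under every alternative that could be run. With the most variable probe set Stc2 had 0.37 and Vldlr -0.16, and no other alternative moved these genes further than that spread. Esm1 was the only member called in any fit: 0 members were called with the replicate block (limma adjusted p of Esm1 0.0706), at a threshold of 0.01, among genes above the median level, where Esm1 and other dim members were not tested, or without both arrays numbered 3 (adjusted p 0.0904), and 0 to 1 with 1 array left out. The 469 calls, 297 higher and 172 lower, became 36 (30 and 6) with the replicate block, 30 (26 and 4) without both arrays numbered 3, 14 (14 and 0) at the threshold of 0.01, 309 with median centring (177 higher), 759 (475 and 284) above the median level and 945 (631 and 314) with array weights. With the mean of probe sets 76 genes were lower. Quantile normalization made 52.4% of the calls higher, against 63.3% with the values as deposited. With 1 array left out the calls ran from 105 to 1042, the higher ones from 73 to 752 and the lower ones from 32 to 290. Hccs had log2 changes of -0.55 with the replicate block (adjusted p 0.0735), -0.59 without both arrays numbered 3 (0.0714) and -0.40 by its other probe set (0.0936), and -0.60 to -0.48 with 1 array left out. Of list genes, 7 rose and 6 fell. These counts were 1 and 2 with the replicate block, 3 and 0 without both arrays numbered 3, 1 and 0 at the threshold of 0.01, and 11 and 10 with array weights. With the mean of probe sets 3 fell and with the most variable probe set 2 fell. With 1 array left out 3 to 12 rose and 1 to 9 fell. Fits with an array left out also have fewer samples. Of the 10 called list genes named here, Pam, Ddit3 and Egln3 kept their calls with the replicate block, and Trib3, Atf4, Eif2ak2, Lrp6, Lrpap1, Mxi1 and Pgk1 missed the threshold (adjusted p 0.0520, 0.0652, 0.0763, 0.0651, 0.113, 0.0927 and 0.126). The mean of probe sets ended the calls of Eif2ak2, Lrp6, Lrpap1 and Pgk1, and the most variable probe set those of Lrp6, Lrpap1, Mxi1, Egln3 and Pgk1. Median centring ended those of Lrp6, Lrpap1 and Pgk1, and the other eBayes settings those of Lrp6 and Lrpap1. Both filters on level, and a fit of every probe set, ended those of Lrpap1 and Pgk1. With the threshold kept at 0.05, Lrp6 lost its call in 14 of 21 alternatives, and Lrpap1 and Pgk1 each in 17 of 21. Dim signals limit what can be seen for Fgf21 and Stc2, and signal over background was not given. No protein comparison of Stc1 and Stc2 was run.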
